A study of Mus musculus with 6 samples.

Results

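Replication-dependent histone genes are the clustered genes that supply H1, H2A, H2B, H3 and H4 protein for newly copied DNA. On these arrays they are the non-control probes named Hist1h, Hist2h, Hist3h or Hist4h, and the brightest probe, averaged over the arrays, stood for a gene. There were 49 such genes, read by 57 probes, of 34755 genes read by 55627 probes. They comprised 6 H1, 14 H2A, 12 H2B, 8 H3 and 9 H4 genes. By name, the members belonged to the Hist1 cluster on chromosome 13 (37 genes), the Hist2 cluster on chromosome 3 (8 genes), the Hist3 cluster on chromosome 11 (3 genes) and Hist4h4 on chromosome 6. Hist1h2al is the exception in position, with its probe at chr13:51299277-51299336 (mm9), apart from the other Hist1 probes. Its current symbol, H2af-ps2, is that of a pseudogene.

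RNA was measured on 6 one-colour microarrays, 1 for each of 2 genotypes and 3 RNA fractions. The groups were KO AGO2-RIP, KO IgG-RIP, KO input, WT AGO2-RIP, WT IgG-RIP and WT input. KO denotes LysM-Cre/Dicerflox/flox/Apoe-/- and WT denotes LysM-Cre/Dicerwt/wt/Apoe-/- mice, so that both genotypes carried LysM-Cre and lacked Apoe, the apolipoprotein E gene. LysM-Cre is a Cre recombinase driven by the myeloid lysozyme gene Lyz2. Per the labels the mice were male and 6 to 8 weeks old, and bone marrow cells were grown for 7 days in medium with L929-conditioned supernatant to become macrophages. AGO2-RIP is RNA precipitated from a cleared detergent lysate over 7 hours with beads carrying a monoclonal antibody to AGO2, IgG-RIP is RNA precipitated with control IgG, and input is RNA of the lysate without precipitation. Every sample was pre-amplified, and 500 ng of each cDNA, fragmented by restriction enzymes, was labelled with the dye Cy3. Equal amounts of cDNA were therefore compared, and the values are relative to the other transcripts of the same array.

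Messenger RNAs of replication-dependent histone genes accumulate in S phase, carry no introns and end in a short stem-loop in place of a poly(A) tail. The stem-loop is bound by SLBP, which acts in the processing, translation and timed decay of these messages. Dicer cuts microRNA precursors, and AGO2 carries microRNAs to their target messages, so the AGO2-RIP arrays address which transcripts accompany AGO2 when Dicer is or is not targeted. With 1 array in each group a difference between 2 arrays has no test, and a difference of at least 2-fold (1 on the log2 scale) was used as a size threshold. Counts and medians of a comparison take in only genes well above background on all of its arrays. Where the RNA of a whole culture is compared, fewer dividing cells and less histone RNA per dividing cell cannot be told apart.

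Several histone genes encode almost the same message, and their probes are close to identical. The probe letters are shown for the H2A genes first, because much of that class reads as 1 profile in the results. All 5 probes run to a stop codon at their 3′ end. Capitals mark a base that differs from the most common base at that position of the aligned set, and the genome build is mm9. The aligned set also held the probes of Hist1h2ag and Hist2h2ac, which are not printed, and a tie went to the base first in the alphabet. A capital can therefore be the most common base among the printed probes. Aligned without gaps, the Hist2h2ac probe shared 68.9% to 77.2% of overlapping bases with the others. The probes lie at chr13:23626113-23626172 on the plus strand (Hist1h2af), chr13:22127035-22127094 on the minus strand (Hist1h2ah), chr13:21845304-21845363 on the minus strand (Hist1h2ak), chr13:21878695-21878754 on the minus strand (Hist1h2an) and chr3:96043781-96043840 on the minus strand (Hist2h2aa2).
Hist1h2af: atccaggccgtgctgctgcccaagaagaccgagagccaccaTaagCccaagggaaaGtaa
Hist1h2ah: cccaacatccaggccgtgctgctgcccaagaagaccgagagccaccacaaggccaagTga
Hist1h2ak: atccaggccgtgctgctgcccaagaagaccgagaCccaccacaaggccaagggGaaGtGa
Hist1h2an: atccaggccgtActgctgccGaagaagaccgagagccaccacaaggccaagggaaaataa
Hist2h2aa2: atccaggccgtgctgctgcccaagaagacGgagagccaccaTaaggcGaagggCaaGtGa
Between any pair of these 5 probes, 86.7% to 94.4% of the overlapping bases were the same. In all, the probes of 16 of the 49 members shared an exact run of at least 15 bases with a probe of another member, and 8 of these 16 were H2A genes. Values of such genes cannot be assigned to 1 transcript.

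The H4 genes of the Hist1 cluster gave a second such set, printed for the same reason, with capitals marking the same kind of difference. The mm9 positions are chr13:23790223-23790282, minus strand (Hist1h4c), chr13:23673515-23673574, plus strand (Hist1h4d), chr13:21826989-21827048, plus strand (Hist1h4j), and chr13:21842279-21842338, minus strand (Hist1h4k, a second and dimmer probe of that gene).
Hist1h4c: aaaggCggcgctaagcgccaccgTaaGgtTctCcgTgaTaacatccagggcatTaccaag
Hist1h4d: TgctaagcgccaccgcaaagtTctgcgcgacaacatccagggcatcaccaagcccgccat
Hist1h4j: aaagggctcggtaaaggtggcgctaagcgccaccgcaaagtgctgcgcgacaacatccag
Hist1h4k: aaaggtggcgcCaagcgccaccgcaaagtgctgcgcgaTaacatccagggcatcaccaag
Identity between pairs of these probes ran from 85.4% to 95.8% of the overlapping bases.

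A few probes hold the stem-loop itself. The histone stem-loop motif, 6 stem bases, 4 loop bases and the 6 stem bases that pair with the first, was searched by its conserved letters on both strands of all 55627 probes. It was found in 6 probes on the strand given in the files and in 0 on the other strand, and all 6 belonged to histone genes. The 16 bases are shown for the 2 H3 genes that stood apart in AGO2-RIP and for the second probe of Hist2h2aa2, which went the other way. Capitals mark the 6 bases on each side that pair in the stem.
Hist1h3g: GGCTCTtcttAGAGCC
Hist1h3i: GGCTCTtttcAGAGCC
Hist2h2aa2, second probe: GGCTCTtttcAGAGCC
The other 3 probes with these letters, for Hist1h3a, Hist1h4m and Hist2h2bb, were well above background on 0, 0 and 1 of the 6 arrays.

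Promoter letters were available in RefSeq (GRCm38.p6) for 42 members, with 43 promoters because Hist1h2be had 2. The octamer ATTTGCAT, the known binding motif of the transcription factor OCT1 at H2B promoters, was present on either strand in 6 of 10 H2B and 7 of 13 H2A promoters, against 0 of 6 H1, 0 of 6 H3 and 0 of 8 H4 promoters. These promoters are not all separate. The windows of Hist1h2aa and Hist1h2ba overlap on opposite strands, as do those of Hist1h2ae and Hist1h2bg. Each of these pairs shares its octamer, which was counted for H2A and again for H2B. Hist1h2an and Hist1h2bp also overlap, without an octamer, so their other motifs were counted in both classes too. Over all 32851 promoters of the same length, 250 bases before to 50 after the start, 1.74% held the octamer. CCAAT was present in 37 of the 43 member promoters and TATAAA in 25, against 37.4% and 13.6% of all promoters. Only 2 of 8 H4 promoters held CCAAT. The 250 bases before the start of Hist1h2bm (chr13:21721794-21722043, plus strand, GRCm38.p6) are shown as the example with the octamer, since it is the H2B gene with the highest mean signal. Capitals mark the octamer and CCAAT on either strand.
Hist1h2bm: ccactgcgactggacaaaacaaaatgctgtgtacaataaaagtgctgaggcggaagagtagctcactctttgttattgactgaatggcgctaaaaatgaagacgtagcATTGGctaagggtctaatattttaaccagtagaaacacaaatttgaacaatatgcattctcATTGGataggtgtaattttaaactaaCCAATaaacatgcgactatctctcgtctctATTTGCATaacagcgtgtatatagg
The letters describe the promoters, and no binding was measured here.

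The arrays were similar in brightness, with 37.6% to 46.3% of spots well above background and 0 saturated spots on each. Repeated spots of 1 probe varied with a root mean square SD of 0.15 to 0.19 on the log2 scale within an array, which gives 0.22 to 0.25 for a difference between 2 arrays and covers spot error only. All 6 arrays lay on 1 slide, with KO and WT on different slide rows and each fraction in its own slide column. Array position and group therefore cannot be told apart. Dicer1 had scaled levels of 0.94 in KO AGO2-RIP, -2.24 (not above background) in KO IgG-RIP, -0.55 in KO input, 0.93 in WT AGO2-RIP, 0.18 in WT IgG-RIP and 0.22 in WT input. The exons deleted are not given in the sources used here, so that this probe does not check the genotype. The X-inactivation transcript Xist was well above background on the 3 WT arrays and on 0 KO arrays, and the Y-linked Ddx3y on the 3 KO arrays and on 0 WT arrays, against the label of male for all. Lyz2 had levels of 3.56, 4.11 and 5.66 in KO AGO2-RIP, IgG-RIP and input, against -4.30, -1.16 and -2.19 in WT, where it was above background in IgG-RIP alone. Throughout, KO and WT are the labels of the arrays. A difference between them cannot be told apart from sex, slide row or the state of Lyz2.

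The other macrophage markers, 7 of 8 on the list, were well above background on all 6 arrays, and so were all 5 markers of dividing cells. Of the neutrophil, T cell, B cell, fibroblast and dendritic cell lists, 0 genes were above background on all 6 arrays, and of the 4 erythroid genes on the arrays 1 was, the globin gene Hba-a1. The linear sum of the neutrophil list ran from 0.834 to 1.97 over the arrays, beside 858 to 1380 for the macrophage list. Summed on the linear scaled scale, the dividing-cell markers came to 55.8 in KO AGO2-RIP, 51.1 in KO IgG-RIP, 91.0 in KO input, 73.9 in WT AGO2-RIP, 47.3 in WT IgG-RIP and 105 in WT input. Their sum was, like most histone members, higher in input than in the precipitates of each genotype, and its part in the histone results was not tested. The pattern was not particular to dividing-cell markers. The macrophage list summed to 858 in KO AGO2-RIP, 1170 in KO IgG-RIP and 1264 in KO input, and to 926, 1071 and 1380 in WT. A list of DNA replication and S phase genes did not share it for WT AGO2-RIP, with 331 there and 300 in WT input. Its sum in WT IgG-RIP was 203, below input. In KO the list summed to 209 in AGO2-RIP, 218 in IgG-RIP and 287 in input.

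Of the 49 members, 34 were well above background on all 6 arrays, 7 on some and 8 on none. The 8 not detected were Hist1h1d, Hist1h2ae, Hist1h2al, Hist1h2bp, Hist1h3a, Hist1h4m, Hist2h3c2 and Hist3h2ba. Testis genes were among the detected members: Hist1h1t (testis H1) on 5 arrays, Hist1h2aa (testis H2A) and Hist1h2ba (testis H2B) on all 6. The signal of Hist1h2ba moved almost as that of Hist1h2bm, with AGO2-RIP minus input of -1.24 in KO and -1.77 in WT for Hist1h2ba and of -1.20 in KO and -1.84 in WT for Hist1h2bm. Whether other H2B messages contribute to the Hist1h2ba probe was not tested.

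The most general feature of the family was a lower share in both kinds of precipitate than in input. Among the 34 members above background on every array, both input arrays exceeded all 4 precipitate arrays in 27, a pattern seen in 35.4% of the 12383 genes above background on all 6 arrays. WT input was the brightest array for 24 of the 34 members and KO input for 3. The brightest array was not counted over all genes, so these counts have no background beside them. The reverse pattern, with both inputs below all 4 precipitates, held for 3 members, Hist1h2be, Hist1h2bg and Hist1h4i, against a background of 18.7%.

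**Figure D1:**
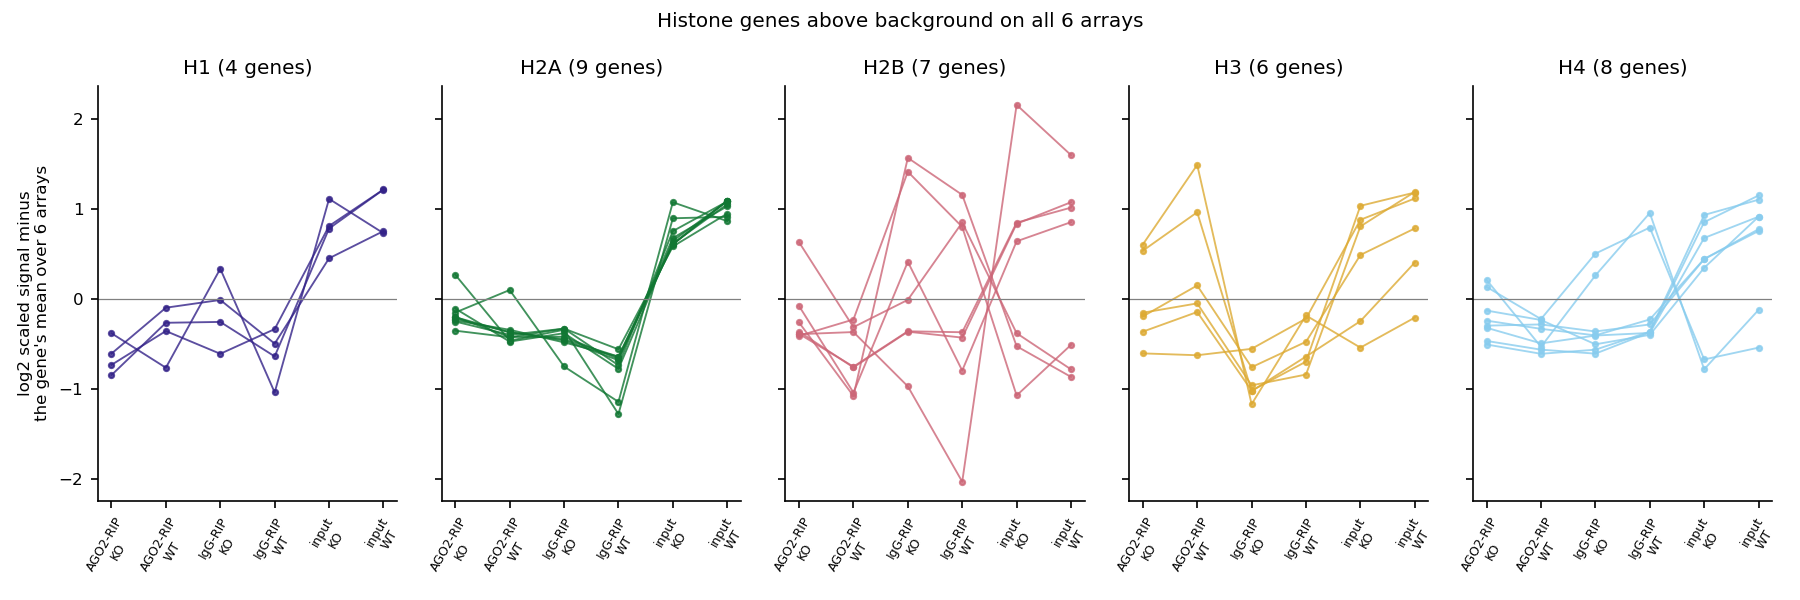
Log2 scaled signal of each histone gene above background on all 6 arrays, given as the difference from that gene's own mean over the 6 arrays (y axis), in 5 panels by histone class, with the arrays on the x axis and 1 line for each gene. Input lies above the precipitates for 27 of 34 genes, most H2A lines nearly coincide, and H2B lines go both ways.

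The brightest member of each class shows the pattern array by array. Hist1h1b, a linker histone H1 of dividing cells, had log2 scaled levels of 2.57 in KO AGO2-RIP, 2.69 in KO IgG-RIP and 4.11 in KO input, and of 2.94, 2.97 and 4.52 in the same fractions of WT. Hist1h2ah, a core histone H2A, had 5.79 in KO AGO2-RIP, 5.72 in KO IgG-RIP and 6.63 in KO input, and 5.65, 5.49 and 6.99 in WT. In both genes the 2 input arrays were the highest and the precipitates lay close together. Hist1h2bm, a core histone H2B, had 6.07, 6.07 and 7.27 in KO AGO2-RIP, IgG-RIP and input, and 5.67, 6.00 and 7.51 in WT. Hist1h3d, a core histone H3, had 6.54, 5.97 and 7.22 in KO AGO2-RIP, IgG-RIP and input, and 6.88, 6.26 and 7.52 in WT. Input was again highest in both, but for Hist1h3d the AGO2-RIP arrays stood between IgG-RIP and input in both genotypes. The brightest H4 probe, for Hist1h4i, went the other way, with 8.28, 8.65 and 7.48 in KO AGO2-RIP, IgG-RIP and input, and 7.92, 8.94 and 7.61 in WT. A second probe of that gene, described further on, was lower than input in both kinds of precipitate.

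AGO2-RIP against input answers which histone messages make up more or less of the AGO2 precipitate than of the lysate. In KO, 37 members were measured with a median log2 difference of -0.83, against -0.24 over 15282 genes. At least 2-fold lower were 13 members and at least 2-fold higher 2, against 26.4% and 14.6% of all genes. In WT, 36 members had a median of -1.39 against -0.24 over 14417 genes, with 26 at least 2-fold lower and 1 higher, against 26.4% and 14.8%. The members' median was thus below that of all genes in both genotypes, and 13 of 37 in KO was closer to the background share than 26 of 36 in WT. Median centring, which moved the all-gene medians to -0.74 in KO and -0.52 in WT, gave 27 lower and 0 higher in KO, against 41.4% and 7.87% of all genes. Quantile normalization gave 4 lower and 2 higher in KO, against 19.8% and 17.4% of all genes, and 13 lower and 2 higher in WT, against 20.3% and 17.4%. The count of 4 lower in KO was thus below the background share under that scaling.

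All 5 classes had medians below 0. H1 genes, which bind linker DNA between nucleosomes, had the lowest class median in KO, -1.50, and -1.49 in WT. Hist1h1e was the lowest H1 gene in KO, at -1.63, and Hist1h1b in WT, at -1.57. The testis gene Hist1h1t was the exception, at 0.36 in KO. The H2A median was -0.83 in KO and -1.42 in WT. Its ends in KO were Hist3h2a at -1.23 and Hist2h2ab at -0.14, and in WT Hist2h2ab at -1.90 and Hist3h2a at -0.77. Hist2h2ab was therefore the H2A gene closest to input in KO and the one farthest below it in WT.

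H2B had a median of -0.72 in KO and -1.77 in WT, and it held the lowest member of the family in both genotypes. That gene, Hist1h2bc, had levels of -0.13 in KO AGO2-RIP, -0.71 in KO IgG-RIP and 2.42 in KO input, and of -0.11, -1.77 and 1.86 in WT. Its AGO2-RIP signal was 5.86-fold lower than input in KO and 3.91-fold lower in WT. Hist1h2be was the highest H2B gene, at 1.01 in KO and 0.47 in WT. The H3 median was -0.82 in KO and -0.94 in WT, with Hist2h3b lowest at -1.49 in KO and -1.74 in WT. The highest H3 gene, Hist1h3i, stood opposite to its class at 1.15 in KO and 1.70 in WT. H4 had a median of -0.71 in KO and -1.12 in WT, with Hist1h4j lowest in KO at -1.44 and Hist1h4c lowest in WT at -1.71.

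**Figure D2:**
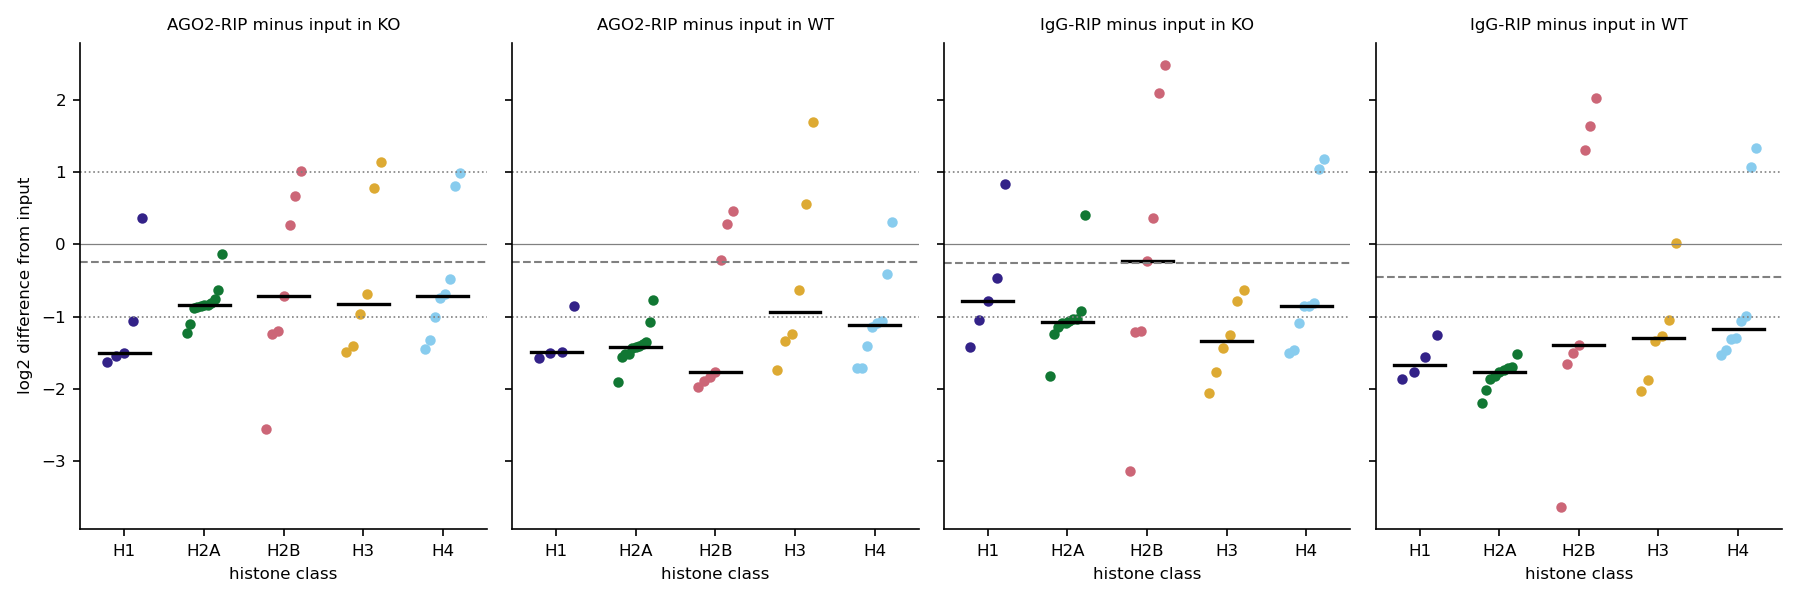
Log2 difference from input for each measured histone gene (points) by class on the x axis, for AGO2-RIP in KO and WT and for IgG-RIP in KO and WT. Black bars are class medians, the dashed line is the median of all genes and dotted lines mark 2-fold. Class medians lie below 0 in every panel (that of H2B for IgG-RIP in KO was 0.03 after quantile normalization), and single genes of several classes stand above it.

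The IgG-RIP arrays, where no AGO2 antibody was present, gave the same direction. IgG-RIP minus input had a median of -1.03 over 36 members in KO, against -0.26 over 14334 genes, and of -1.51 over 34 members in WT, against -0.45 over 13346 genes. In KO, 20 members were at least 2-fold lower and 4 higher, against 28.8% and 17.5% of all genes, and in WT 27 were lower and 5 higher, against 37.0% and 18.6%. After quantile normalization the counts were 7 lower and 3 higher in KO, against 19.5% and 19.6% of all genes, and 8 lower and 4 higher in WT, against 26.3% and 22.3%, so that the counts of lower members were then close to the background. These differences share the input arrays with those of AGO2-RIP, so the 2 are not independent.

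By class, the IgG-RIP medians relative to input were -0.78 (H1), -1.07 (H2A), -0.23 (H2B), -1.34 (H3) and -0.85 (H4) in KO. In WT they were -1.66, -1.76, -1.39, -1.30 and -1.18 for the same classes. The H2B median in KO turned to 0.03 after quantile normalization. Hist1h2bc was again the lowest member, 8.76-fold below input in KO and 12.4-fold in WT. At the other end were 2 H2B genes. Hist1h2bg had levels of -0.62 in KO AGO2-RIP, 1.21 in KO IgG-RIP and -1.28 in KO input, and of -0.44, 0.59 and -0.72 in WT. Hist2h2be had 0.37, 2.21 and 0.11 in KO AGO2-RIP, IgG-RIP and input, and -0.44, 1.79 and -0.23 in WT. Both were highest on the IgG-RIP array of each genotype, with AGO2-RIP nearer to input. Their IgG-RIP signal exceeded input 5.61-fold (Hist1h2bg) and 4.27-fold (Hist2h2be) in KO, and 2.48-fold and 4.07-fold in WT.

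Further members stood opposite to their class in IgG-RIP. Hist1h2be was 1.63 above input in WT on the log2 scale, and Hist1h4h, an H4 gene of low signal, 1.04 above it in KO and 1.08 in WT. Hist1h1t was 0.84 above input in KO and at least 1.50 above it in WT, where input was not well above background. The pseudogene Hist3h2bb-ps was well above background in WT IgG-RIP alone, at 1.66, and there at least 12.1-fold above input and at least 19.4-fold above AGO2-RIP. The lowest of each class in KO were Hist1h1b at -1.42, Hist3h2a at -1.83, Hist1h3c at -2.06 and Hist1h4j at -1.50. In WT they were Hist1h1e at -1.86, Hist1h2aa at -2.19, Hist1h3f at -2.03 and Hist1h4c at -1.52.

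Signal strength moved with these values. Over all genes, the median of AGO2-RIP minus input was -0.76 in KO and -0.63 in WT at a mean scaled signal of 4 and over, against -0.18 in KO and -0.06 in WT from 0 to 2. Of the measured members, 17 lay in that brightest range, where their medians were -0.83 in KO and -1.42 in WT. In the range from 2 to 4, 6 members had medians of -1.45 in KO and -1.49 in WT, against -0.56 and -0.38 over all genes. In IgG-RIP minus input the 17 brightest members had medians of -1.08 in KO and -1.47 in WT, against -0.83 and -1.23 over 2072 genes of that range. In AGO2-RIP minus input, 5 of the 17 brightest members in KO and 15 in WT were at least 2-fold lower, against 42.6% and 41.2% of genes of that range. In IgG-RIP minus input, 12 in KO and 15 in WT were, against 43.4% and 55.8%. In the ranges from 2 to 4 and of 4 and over the members' median was below that of equally bright genes. In KO AGO2-RIP minus input at 4 and over it was so only by -0.83 against -0.76, beside a spot error of 0.22. Below a signal of 0 the members' median was not lower throughout: 9 members had a median of AGO2-RIP minus input of 0.36 in KO, against 0.0036 over all genes there, and 8 had -0.59 in WT, against -0.18. In IgG-RIP minus input, 8 such members had 0.39 in KO, against 0.25, and 6 had 0.02 in WT, against 0.17.

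**Figure D3:**
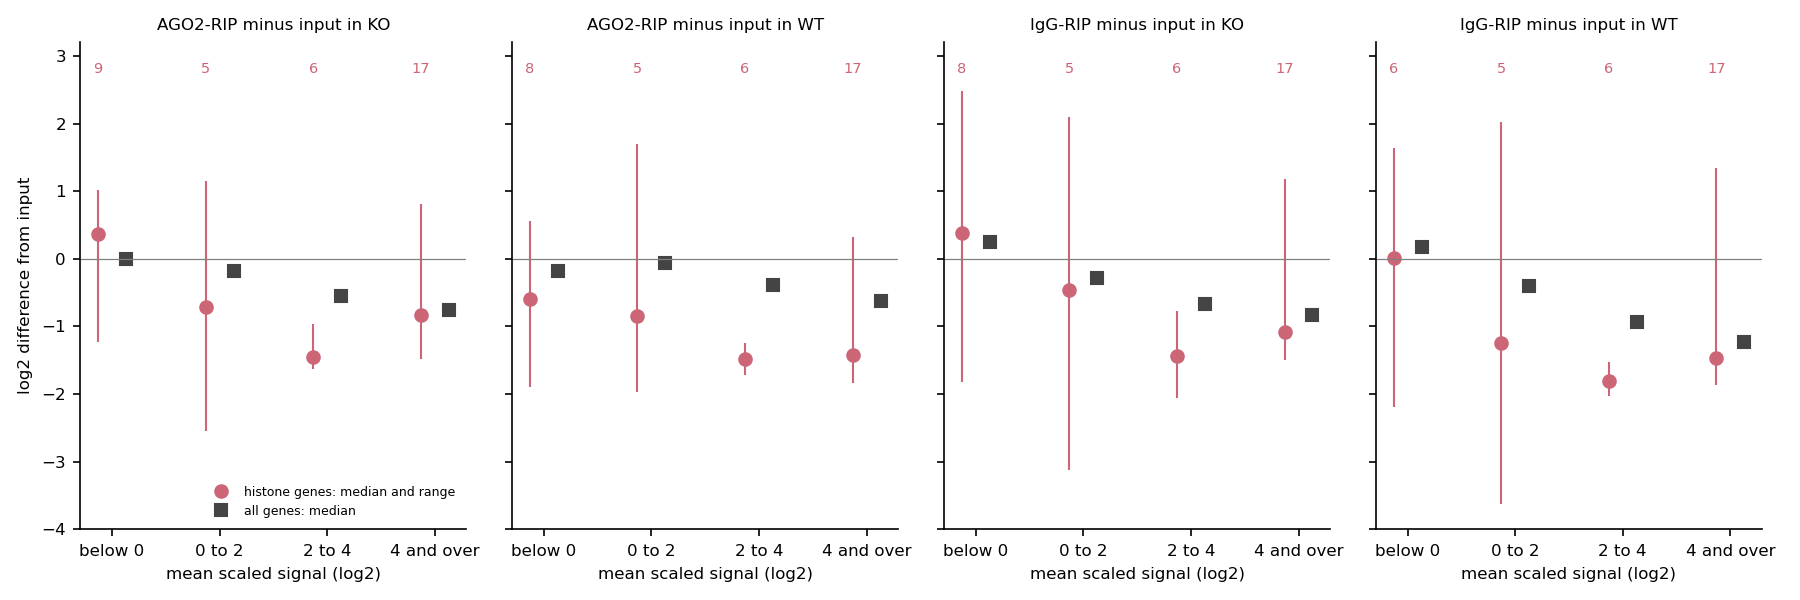
Log2 difference from input (y axis) by mean scaled signal over the 6 arrays (x axis) in 4 comparisons. Circles and lines give the median and range of the histone genes, with their number above, and squares the median of all genes. At a mean signal of 2 and over the circles lie below the squares in all 4 comparisons, though narrowly for AGO2-RIP in KO at 4 and over (-0.83 against -0.76).

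The members were also set beside genes of like probe composition. Among genes whose 60-base probe held at least 35 G or C, the median of IgG-RIP minus input was 0.35 in KO and 0.59 in WT, and 5.18% and 5.11% were at least 2-fold lower. The 8 members with such probes had medians of -1.08 in KO and -1.40 in WT, with 5 and 7 of 8 at least 2-fold lower. For AGO2-RIP minus input the same 8 members had -0.94 in KO and -1.40 in WT, against 0.01 and -0.04 over all genes with such probes. Members whose probes held 25 to 29 G or C went differently in KO: 7 had a median of AGO2-RIP minus input of 0.26, against -0.37 over all genes with such probes, and of IgG-RIP minus input of -0.23, against -0.38. In WT, 6 such members had -0.73 against -0.35 in AGO2-RIP and -1.35 against -0.62 in IgG-RIP.

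Both genotypes together gave 2 arrays of each fraction, and limma was fitted over all 18884 genes above background on at least 2 arrays with genotype as a term, leaving 2 residual degrees of freedom. Of the members, 37 were tested. For AGO2-RIP against input, limma with Benjamini-Hochberg adjustment over all genes called 0 members higher and 1 lower, against 4.47% and 5.78% of all genes. The 1 called was Hist1h2bc, which fell by 2.26 ± 0.44 on the log2 scale (SE, adjusted p = 0.0431). At an unadjusted p under 0.05, 20 of the 37 members were lower and 1 higher, against 3424 and 2901 of all 18884 genes. Next to the threshold were Hist2h3b at -1.61 (adjusted p = 0.0553), Hist1h1b at -1.56 (adjusted p = 0.0567) and Hist1h4j at -1.58 (adjusted p = 0.0571).

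For IgG-RIP against input the same limma fit called 12 members lower and 2 higher, against 15.8% and 14.3% of all genes. The 12 were 1 of 5 H1 genes, 5 of 11 H2A, 1 of 7 H2B, 3 of 6 H3 and 2 of 8 H4. The log2 difference was -3.38 for Hist1h2bc (adjusted p = 0.0196), -1.97 for Hist1h3c (adjusted p = 0.0241) and -1.92 for Hist3h2a (adjusted p = 0.0273). Hist1h2ab fell by 2.93 (adjusted p = 0.0201), although its IgG-RIP values were not well above background and bound the difference only at 1.67 or more lower in KO and 2.17 or more in WT. The 2 that rose were H2B genes, Hist2h2be by 2.06 (adjusted p = 0.0239) and Hist1h2bg by 1.90 (adjusted p = 0.0345). Normexp background correction and the restriction to genes above background on all 6 arrays gave more members called lower, 26 of 37 and 23 of 34, and quantile normalization fewer, 3 of 37. The shares of all genes called lower were 20.6% with normexp, 29.6% with the restriction and 6.74% with quantile normalization.

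AGO2-RIP against IgG-RIP addresses which members were precipitated more with the AGO2 antibody than with control IgG. In KO, 36 members had a median of 0.08, against -0.19 over 15645 genes, with 2 at least 2-fold higher and 2 lower, against 10.5% and 9.91% of all genes. In WT, 35 members had a median of 0.17, against -0.24 over 15208 genes, with 4 higher and 6 lower, against 20.3% and 22.2%. None of these 4 shares exceeded the background. The WT median turned to -0.15 after quantile normalization, against -0.32 over all genes. Median centring gave 6 higher and 3 lower in WT, against 26.2% and 13.3% of all genes. Normexp gave 0 higher and 2 lower in KO, against 6.37% and 3.07%, and 1 each in WT, against 16.9% and 7.79%. Both AGO2-RIP arrays lay above both IgG-RIP arrays for 11 of 34 members, against 25.0% of genes, and below both for 6, against 34.1%.

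The class that stood highest was H3, with a median of 0.73 in KO and 0.71 in WT, above 0 under every scaling tried. Hist1h3i had levels of 0.62 in KO AGO2-RIP, -1.15 in KO IgG-RIP and -0.52 in KO input, and of 1.51, -0.17 and -0.19 in WT. Hist1h3g had -0.03, -1.59 and -0.81 in KO AGO2-RIP, IgG-RIP and input, and 0.40, -1.20 and -0.16 in WT. In both genes the AGO2-RIP array was the highest of its genotype, above input as well as IgG-RIP, and the AGO2-RIP and IgG-RIP arrays did not overlap. AGO2-RIP exceeded IgG-RIP 3.42-fold in KO and 3.19-fold in WT for Hist1h3i, and 2.95-fold in KO and 3.04-fold in WT for Hist1h3g. These are the 2 detected H3 genes whose probes hold the stem-loop letters printed above. Hist1h3c, Hist1h3d and Hist1h3f, whose probes do not hold them, had AGO2-RIP minus IgG-RIP of 0.56 to 0.81 in KO and 0.55 to 0.79 in WT. Hist2h3b, the H3 gene of the Hist2 cluster, was the lowest, at -0.05 in KO and -0.41 in WT.

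The stem-loop letters did not go with 1 direction. The second probe of Hist2h2aa2, an H2A gene, held the same 16 letters as that of Hist1h3i. Its levels were 0.47 in KO AGO2-RIP, 1.00 in KO IgG-RIP and 0.74 in KO input, and -0.18, 2.14 and 0.36 in WT. IgG-RIP was the highest array of each genotype there, and AGO2-RIP was 0.53 below it in KO and 2.31 in WT. The brightest probe of the same gene gave AGO2-RIP minus IgG-RIP of -0.02 in KO and 0.31 in WT. The probe of Hist2h2bb with the stem-loop letters was well above background in KO AGO2-RIP alone, at -1.52. That bounds it at least 1.54-fold above IgG-RIP and at least 1.89-fold above input in KO.

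**Figure D4:**
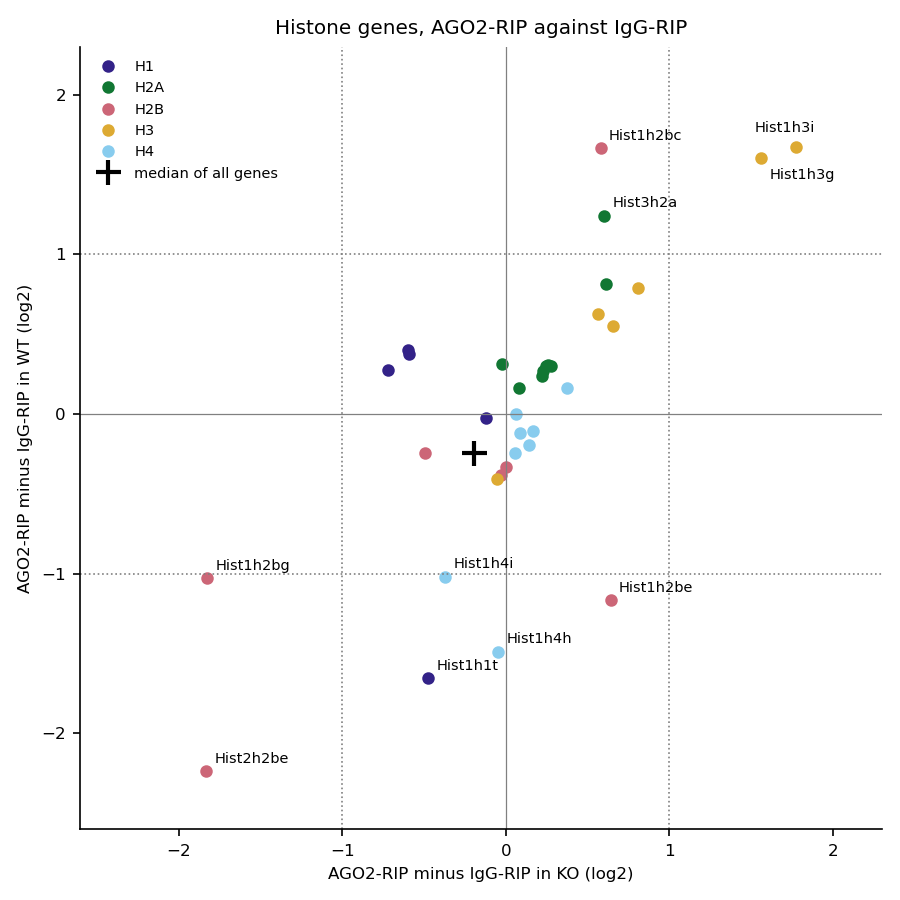
AGO2-RIP minus IgG-RIP on the log2 scale in KO (x axis) and in WT (y axis) for each histone gene measured on all 4 arrays, coloured by class; the cross is the median of all genes in each comparison and dotted lines mark 2-fold. Hist1h3i and Hist1h3g lie past 2-fold in both genotypes, and Hist2h2be and Hist1h2bg lie past it on the other side.

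H2A genes lay close together, with a median of 0.24 in KO and 0.30 in WT. The H2A probes printed above had values of -0.02 to 0.26 in KO and 0.16 to 0.31 in WT, beside a spot error of 0.24 for such a difference in both genotypes. Among all H2A genes measured on both arrays of a genotype, Hist1h2aa was the highest in KO at 0.61 and Hist2h2ab the lowest at -0.54, and in WT Hist3h2a was the highest at 1.24 and Hist1h2ah the lowest at 0.16. Hist1h2ab was above background in AGO2-RIP and not in IgG-RIP, which bounds it at least 1.74-fold higher in KO and at least 2.13-fold higher in WT. After quantile normalization the H2A median in WT was -0.13.

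H2B genes went both ways. Hist2h2be was lower in AGO2-RIP than IgG-RIP 3.56-fold in KO and 4.71-fold in WT, and Hist1h2bg 3.54-fold in KO and 2.04-fold in WT. Hist1h2bc was 1.50-fold higher in KO and 3.17-fold higher in WT, and it was the highest H2B gene in WT. Hist1h2be was the highest in KO, at 0.64, and lay at -1.16 in WT. The class median was -0.03 in KO, 0.04 after quantile normalization and 0.15 after normexp, and -0.38 in WT.

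Among H1 genes, Hist1h1a, Hist1h1c and Hist1h1e had AGO2-RIP minus IgG-RIP of -0.60, -0.72 and -0.59 in KO, against 0.40, 0.28 and 0.37 in WT. Hist1h1b lay at -0.12 in KO and -0.02 in WT, and Hist1h1t at -0.47 and -1.66. The H1 median was -0.59 in KO and 0.28 in WT, and after quantile normalization the WT median was no longer above 0. For H4 the median was 0.08 in KO and -0.15 in WT, which became 0.15 after median centring and 0.03 after normexp. Hist4h4 was the highest H4 gene, at 0.38 in KO and 0.17 in WT. Hist1h4i was the lowest in KO at -0.37 and Hist1h4h the lowest in WT at -1.49.

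Over both genotypes, limma with Benjamini-Hochberg adjustment called 0 of 18884 genes, and thus 0% in either direction, for AGO2-RIP against IgG-RIP. At an unadjusted p under 0.05 it gave 2298 genes higher and 1254 lower, among them 4 members higher and 2 lower. The 4 were Hist1h2ab (whose IgG-RIP values were not above background), Hist1h2bc, Hist1h3g and Hist1h3i, and the 2 were Hist1h2bg and Hist2h2be. Hist1h3i had a difference of 1.73 ± 0.40 (SE, adjusted p = 0.134), Hist1h3g of 1.58 ± 0.37 (adjusted p = 0.136) and Hist2h2be of -2.03 ± 0.39 (adjusted p = 0.104). None passed the threshold in that limma fit. Restricted to genes above background on all 6 arrays, the fit called 2 of 34 members higher and 1 lower, against 4.35% and 0.331% of 12383 genes.

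Some genes were read by more than 1 probe, which shows how far a value belongs to the probe. In Hist1h4i, a core histone H4 gene, they differed in direction. Its brightest probe was 0.81 above input in KO AGO2-RIP and 0.32 above it in WT AGO2-RIP, and 1.18 and 1.34 above it in KO and WT IgG-RIP. Its next probe gave -1.09 and -2.08 in KO and WT AGO2-RIP, and -0.71 and -1.28 in KO and WT IgG-RIP, below input like most of the H4 class. The brightest probe (mm9 chr13:22132679-22132738) holds a run of 21 bases from its base 17 that is also present in a probe of Galns, and it shares runs of at least 15 bases with probes of 3 genes, Galns, Irak2 and Timmdc1. The run is printed because the other probes of the gene do not share such a run. Its letters resemble the B1 family of mouse interspersed repeats, and no repeat annotation was used here.
Hist1h4i, brightest probe: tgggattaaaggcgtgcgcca
The part of other transcripts in this probe's signal was not tested.

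In AGO2-RIP the direction against input was shared by both probes of the other 4 genes with 2 probes on all 6 arrays; in IgG-RIP the second probe of Hist2h2aa2 was above input, at 0.26 in KO and 1.78 in WT, and the brightest below it, at -1.08 and -1.82. Hist1h2ak was lower than input by its brightest probe at -0.88 in KO and -1.40 in WT AGO2-RIP, and by its second probe, which shares no run with another member, at -2.00 and -1.99. Hist1h4k gave -0.69 in KO and -1.09 in WT by its brightest probe and -1.13 and -1.52 by the next. Hist2h4 gave -0.74 in KO and -1.06 in WT, and -1.15 and -1.81 by the next. Counting only members whose probes share no run of 15 bases with another member left medians of -0.69 in KO over 23 genes and -1.12 in WT over 22 for AGO2-RIP minus input. Runs shared with genes outside the family were not excluded. That set still held Hist1h4i, and Hist1h1a, Hist1h1b, Hist1h3g, Hist1h4k, Hist2h2ab and Hist4h4, whose probes each share a run with 1 such gene.

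**Figure D5:**
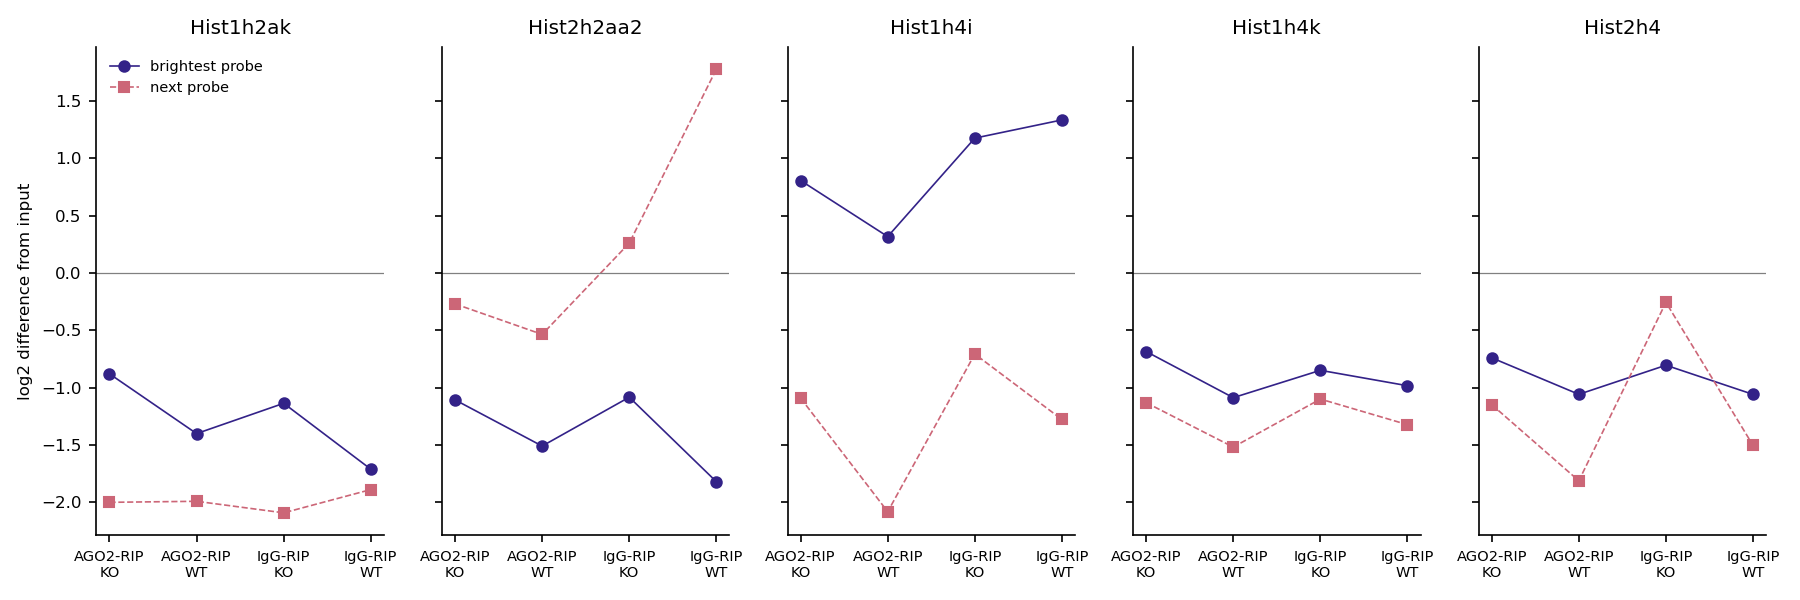
Log2 difference from input (y axis) in KO and WT AGO2-RIP and IgG-RIP (x axis) for the 5 histone genes with 2 probes above background on all 6 arrays; circles are the brightest probe and squares the next. The probes of Hist1h4i lie on opposite sides of 0 in all 4 comparisons.

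Dicer genotype was compared within input and within AGO2-RIP. In input, 36 members had a median of KO minus WT of -0.31, against -0.08 over 14662 genes, and 31 of the 36 were below 0, as were 8514 of the 14662 genes. None reached 2-fold in either direction, against 1.02% of genes higher and 1.72% lower. The members ran from Hist1h4h at -0.66 to Hist1h2bc at 0.56, and class medians were -0.35 (H1), -0.37 (H2A), -0.17 (H2B), -0.31 (H3) and -0.30 (H4). The 2072 genes of mean signal 4 and over had a median of -0.20, against -0.33 for the 17 members among them. After quantile normalization the members' median differed from that of all genes by -0.02, and the H2B and H4 medians were 0.23 and 0.01. The list of DNA replication and S phase genes had a median of -0.04 over 27 genes, and the 5 dividing-cell markers a median of 0.15.

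In AGO2-RIP, 37 members had a median of KO minus WT of 0.10, against -0.03 over 16387 genes. Hist2h2ab, an H2A gene, was the 1 member at least 2-fold higher, at 1.54, and 0 were at least 2-fold lower, against 6.90% and 11.0% of genes. Its levels were -0.75 in KO AGO2-RIP, -0.21 in KO IgG-RIP and -0.62 in KO input, and -2.29, -3.29 (not above background) and -0.40 in WT. Hist1h3i was the lowest member, at -0.89. The class medians were -0.38 (H1), 0.15 (H2A), 0.40 (H2B), -0.28 (H3) and 0.10 (H4), of which those of H2A and H4 were -0.05 and -0.09 after median centring, and that of all members -0.09. The difference of differences, KO minus WT of AGO2-RIP minus IgG-RIP, had a median of -0.02 over 35 members, against -0.03 over 14048 genes, and the members' median was 0.38 after quantile normalization. Past 2-fold were 3 members higher, Hist1h2be at 1.81, Hist1h4h at 1.44 and Hist1h1t at 1.18, and 1 lower, Hist1h2bc at -1.08, against 16.5% and 20.2% of genes. With 1 array a group, none of these differences between genotypes was tested.

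Histone variant genes, most of which are also expressed outside S phase and can carry poly(A) tails, were compared as a list of 11. Tails and cell cycle phase were not measured here, and genes of the list may differ in both. Over 9 measured genes the median of AGO2-RIP minus input was -1.01 in KO and -1.23 in WT, close to the medians of the clustered genes, and limma called 0 of 10 tested. The highest were H2ax, the DNA damage variant of H2A, and H3f3b, one of the genes of the replacement histone H3.3. Macroh2a2 was also above 0, at 0.01 in KO and 0.47 in WT. H2ax had levels of 4.78 in KO AGO2-RIP, 2.72 in KO IgG-RIP and 3.64 in KO input, and of 6.40, 2.56 and 3.60 in WT. H3f3b had 5.84, 4.52 and 5.30 in KO AGO2-RIP, IgG-RIP and input, and 6.82, 4.62 and 5.20 in WT. AGO2-RIP was the highest array of each genotype for both, and AGO2-RIP minus IgG-RIP was 2.06 in KO and 3.85 in WT for H2ax and 1.32 in KO and 2.19 in WT for H3f3b. At the low end of AGO2-RIP minus input were Macroh2a1 at -1.56 and H2az1 at -1.54 in KO, and H2az1 at -1.63 and H2aj at -1.53 in WT. In KO minus WT AGO2-RIP, H2ax was at -1.62 and Macroh2a1 at -1.02, the only list members past 2-fold in that comparison.

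Genes that process and degrade histone messages formed a list of 24. Their median of AGO2-RIP minus input was -0.59 in KO and -0.62 in WT over 21 measured genes, and limma called 1 higher and 2 lower of 23 tested. The 1 was Zfp473, a factor of histone message processing (limma adjusted p = 0.0374), which was well above background on the 2 AGO2-RIP arrays and on no other. Its values therefore bound AGO2-RIP minus input only at 2.33 or more in KO and 1.95 or more in WT. The 2 were the cap-binding gene Ncbp2, which fell by 1.90 (limma adjusted p = 0.0453), and Snrpb, which fell by 2.59 (limma adjusted p = 0.0374). Slbp, which encodes the stem-loop binding protein, had levels of 3.14 in KO AGO2-RIP, 1.80 in KO IgG-RIP and 3.04 in KO input, and of 2.52, 0.39 and 3.03 in WT. Its AGO2-RIP level was thus nearer to input than its IgG-RIP level was in each genotype, with AGO2-RIP minus IgG-RIP of 1.34 in KO and 2.13 in WT. The U7 snRNP gene Lsm10 was the highest of the list's genes measured on both arrays in WT AGO2-RIP minus IgG-RIP, at 2.21. The lowest in KO AGO2-RIP minus input were the Sm protein genes Snrpb at -3.01 and Snrpd3 at -2.33. In KO minus WT input the list had a median of 0.11 over 21 genes, with 0 past 2-fold.

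Histone chaperones had a median of AGO2-RIP minus input of -0.87 in KO over 16 genes and -0.40 in WT over 17, with 0 of 17 called by limma. The chaperone gene Npm1 was the lowest in both genotypes, at -1.43 in KO and -1.83 in WT. The highest were Atrx at 0.79 and Ubn1 at 0.38 in KO, and Cabin1 at 0.75 and Ubn1 at 0.58 in WT. The DNA replication and S phase list had medians of -0.47 in KO over 27 genes and -0.15 in WT over 29, with 1 called higher and 1 lower of 30 by limma. The WT median of that list turned to 0.13 after quantile normalization and 0.01 after normexp. Ccne1, the cyclin E1 gene, was its highest member at 3.07 in KO and 4.38 in WT, and Gins2, a replication fork gene, the lowest at -3.29 in KO and -2.78 in WT. In AGO2-RIP minus IgG-RIP the S phase list had a median of -0.06 in KO over 26 genes (0.03 after normexp) and 0.43 in WT over 29, beside 0.08 and 0.17 for the histone members.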

How the data were processed

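The deposited files hold 1 scanner output per array from Agilent Feature Extraction 10.7.3.1, per the file headers. The intensities used are the authors' processed signals, which per the file headers were background-subtracted and spatially detrended, with a surrogate value for spots near background. The number of arrays limits the precision. From these, log2 intensity minus each array's 75th percentile was computed (deposited intensities, log2 scale here), so a value is relative to its own array. Control spots and 54 probes with outlier spots were left out, repeated spots were averaged, and a gene was read from its brightest probe. Genes were named through RefSeq (GRCm38.p6) by accession (27634 probes), symbol (3399) or synonym (320), and otherwise kept the array's name. Where 1 side of a comparison was not well above background, the difference is a bound ("at least"): the brighter value against the dim probe's signal or, if higher, the lowest signal of any probe well above background on that array.

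Pairwise comparisons have 1 array a group and no test. Over both genotypes limma 3.58.1 (R 4.3.3) was fitted with fraction and genotype as terms, two-sided, with Benjamini-Hochberg adjustment over all 18884 genes and a threshold of 0.05. Nothing in the labels says that the arrays come from separate cultures. The error of the fit is how far the differences between fractions differ between KO and WT on these arrays. A genotype effect that varies by fraction is therefore counted as error, and p-values measure that spread only. Hist1h2ab enters that fit with IgG-RIP values not above background. The fit was tested on simulated data. The members and gene lists (histone variants, message processing and turnover, chaperones, DNA replication and S phase, cell type markers) were chosen with earlier results of these data known. Genes were named by rule: the brightest member of each class, the highest and lowest of each class in a comparison, members past 2-fold against their class, members whose probes disagreed most, and the 2 highest and 2 lowest of a list; Hist1h2ba and the genes that limma called were named in addition, after their values were seen. Alternatives were median centring, quantile normalization, normexp background correction (offset 50), no filter, a filter on all 6 arrays, the median of a gene's probes, and other limma designs. Python 3.11.15, numpy 2.4.6, pandas 2.3.3 and matplotlib 3.10.9 were used.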

Additional observations from a re-analysis of the deposited data

Results flagged for a closer look

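In 2 members measured on all the arrays concerned, the KO and WT differences lay on opposite sides of 0 and at least 2-fold apart. With 1 array a group, neither was tested. Other members so measured lay on opposite sides of 0 by less, among them the H1 genes Hist1h1a, Hist1h1c and Hist1h1e in AGO2-RIP minus IgG-RIP. Hist2h2ab, not above background in WT IgG-RIP, also lay on both sides and more than 2-fold apart. Its IgG-RIP minus input was 0.40 in KO and bounded at -1.63 or lower in WT. Hist1h2be, an H2B gene of low signal, had AGO2-RIP minus IgG-RIP of 0.64 in KO and -1.16 in WT, a difference of 1.81 on the log2 scale. Its levels were 0.28 in KO AGO2-RIP, -0.36 in KO IgG-RIP and -0.73 in KO input, and -0.67, 0.50 and -1.14 in WT. Hist1h4h, an H4 gene of low signal, was 0.99 higher in AGO2-RIP than in input in KO and lay at -0.41 in WT, a difference of 1.41. Its levels were -1.11 in KO AGO2-RIP, -1.07 in KO IgG-RIP and -2.11 in KO input, and -1.86, -0.37 and -1.45 in WT.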

How the results depend on the processing

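The labels give no replicate numbers, so no fit with a replicate number as a block could be made. The limma fit has genotype as a term and so compares fractions within each genotype; the fit without that term is given below. Slide and scan as a block were not run, since all arrays share 1 slide and scan and each genotype lay in its own slide row. In each pair below the value as reported stands first and the alternative second. Reading Hist1h4i by its next probe, or by the median of its probes, turned IgG-RIP minus input from 1.18 to -0.71 in KO and from 1.34 to -1.28 in WT, the 2 reversals among single values at least 2-fold apart. By the next probe AGO2-RIP minus input also turned, from 0.81 to -1.09 in KO and from 0.32 to -2.08 in WT.

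Counts are of members at least 2-fold apart, or of limma calls. Shares of all genes follow the counts of a setting, in the same order, where they are given. Median centring changed AGO2-RIP against IgG-RIP in WT from 6 to 3 lower; AGO2-RIP against input in KO from 2 to 0 higher and 13 to 27 lower; IgG-RIP against input from 4 to 2 higher in KO and 5 to 2 in WT; KO against WT AGO2-RIP from 0 to 1 lower; and the difference of differences from 1 to 5 lower. Its limma calls went from 1 to 8 lower for AGO2-RIP against input, and from 2 to 1 higher and 12 to 27 lower for IgG-RIP against input. Over all genes, the 2-fold shares went from 22.2% to 13.3%, 14.6% to 7.87%, 26.4% to 41.4% and 17.5% to 10.1%. The rest went from 18.6% to 11.0%, 11.0% to 16.2% and 20.2% to 28.5%. The limma shares went from 5.78% to 10.5%, 14.3% to 9.83% and 15.8% to 26.5%. Quantile normalization changed AGO2-RIP against input from 13 to 4 lower in KO, and 1 to 2 higher and 26 to 13 lower in WT. It changed IgG-RIP against input from 20 to 7 lower in KO and 27 to 8 in WT. KO against WT AGO2-RIP went from 1 to 2 higher. Its limma calls went from 1 to 0 lower for AGO2-RIP against input. For IgG-RIP against input they went from 2 to 1 higher and 12 to 3 lower. Over all genes, the 2-fold shares went from 26.4% to 19.8%, 14.8% to 17.4% and 26.4% to 20.3%. The rest went from 28.8% to 19.5%, 37.0% to 26.3% and 6.90% to 8.49%. The limma shares called lower went from 5.78% to 0% and 15.8% to 6.74%. Genes called higher for IgG-RIP against input went from 2705 to 2023 of 18884. Normexp changed AGO2-RIP against IgG-RIP from 2 to 0 higher in KO, and from 4 to 1 higher and 6 to 1 lower in WT; AGO2-RIP against input in KO from 2 to 0 higher; IgG-RIP against input in WT from 5 to 2 higher; KO against WT AGO2-RIP from 1 to 0 higher; and the difference of differences from 3 to 0 higher and 1 to 0 lower. Its limma calls went from 0 to 1 lower for AGO2-RIP against IgG-RIP, from 0 to 1 higher and 1 to 19 lower for AGO2-RIP against input, and from 12 to 26 lower for IgG-RIP against input. Without a filter on dim probes, AGO2-RIP against IgG-RIP in KO went from 2 to 5 higher and 2 to 6 lower; AGO2-RIP against input from 2 to 5 higher in KO and 1 to 2 in WT; IgG-RIP against input in KO from 4 to 9 higher; KO against WT input from 0 to 1 higher and 0 to 3 lower; KO against WT AGO2-RIP from 1 to 3 higher; the difference of differences from 3 to 6 higher and 1 to 5 lower; and limma calls from 1 to 0 lower for AGO2-RIP and 12 to 7 for IgG-RIP against input. The limma shares of all genes called lower without that filter were 1.68% and 6.84%. The 2-fold shares are not given, so the 2-fold counts without that filter have no background beside them. Those counts also take in members not above background and cannot be read as a result about the members. With genes above background on all 6 arrays, KO against WT AGO2-RIP went from 1 to 0 higher, and limma calls from 0 to 2 higher and 0 to 1 lower for AGO2-RIP against IgG-RIP, from 0 to 1 higher and 1 to 16 lower for AGO2-RIP against input, and from 12 to 23 lower for IgG-RIP against input. The limma shares of those genes were 4.35%, 0.331%, 9.12%, 20.9% and 29.6%. Without the genotype term, calls against input went from 1 to 9 lower for AGO2-RIP and 12 to 22 for IgG-RIP. The shares of all genes called lower were then 9.76% and 18.4%. With the 4 arrays of each pair of fractions, calls against input went from 0 to 1 higher and 1 to 10 lower for AGO2-RIP. For IgG-RIP they went from 2 to 1 higher and 12 to 5 lower. The shares of all genes were then 11.2% higher and 13.5% lower for AGO2-RIP, and 10.3% and 8.67% for IgG-RIP.

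The members' median minus that of all genes moved past the spread as follows. Quantile normalization gave 0.17 in place of 0.41 for AGO2-RIP minus IgG-RIP in WT, -0.22 in place of -0.60 in KO and -0.70 in place of -1.15 in WT for AGO2-RIP minus input, -0.41 in place of -0.77 in KO and -0.36 in place of -1.06 in WT for IgG-RIP minus input, and 0.37 in place of 0.13 for KO minus WT AGO2-RIP. The median of a gene's probes gave 0.15 in place of 0.41 for AGO2-RIP minus IgG-RIP and -0.80 in place of -1.06 for IgG-RIP minus input, both in WT. No filter gave -0.67 in place of -1.15 for AGO2-RIP minus input in WT, -1.11 in place of -0.77 for IgG-RIP minus input in KO and -0.00352 in place of -0.23 for KO minus WT input. Members sharing no run with another member, an alternative chosen after seeing the data as was the next probe of Hist1h4i, gave -0.88 in place of -1.15 for AGO2-RIP minus input in WT. The filters change which genes are counted, and for the other settings the cause was not tested.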
